A study of Mus musculus with 11 samples.

Results

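Receptors for peptide hormones, and the accessory proteins that 1 of them needs, were followed through the mesenchymal cells of mouse liver. The 8 genes were chosen by symbol: Gcgr, Pth1r, Vipr1, Calcrl and Crhr2, which encode receptors, and Ramp1, Ramp2 and Ramp3, which encode receptor activity-modifying proteins. They are 8 of the 27998 gene names in the droplet tables, and each was found there. The cells were green cells sorted from the liver of Pdgfrb-BAC-eGFP mice (strain C57BL/6), whose transgene puts green protein under Pdgfrb control and marks hepatic stellate cells (HSC), fibroblasts (FB) and vascular smooth muscle cells (VSMC). CD45 and CD102 gates removed leucocytes and endothelial cells. The mice were adult males.

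For 10X Chromium, 5 libraries were made, each from the pooled livers of 3 mice. With protocol 1, a digestion of minced liver labelled PF, there was 1 library from uninjured mice and 1 from mice given carbon tetrachloride (CCl4) for 6 weeks. With protocol 2, a perfusion digestion followed by a density gradient and labelled HSC, there was 1 library each from uninjured mice, mice 72 h after a single CCl4 dose, and mice given CCl4 for 6 weeks. CCl4 is a toxin that kills hepatocytes around the central vein. Smart-seq2 cells came from 6 plates of sorted wells, on which the layout gives the mouse of each well: uninjured, 6 weeks of CCl4, or 14 days after bile duct ligation (BDL), an operation that scars the liver around the portal tracts. On plates 1 to 5 all wells came from protocol 1, and plate 6 held 3 uninjured portions, 1 from protocol 1 and 2 from protocol 2. With 1 library for each 10X condition there was no replicate and no test between 10X conditions. Their intervals are exact 95% limits for counting error only.

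Class B receptors sit in the cell membrane and bind peptide hormones. Most of them couple to the stimulatory G protein, which drives adenylyl cyclase to make cyclic AMP (cAMP), and this messenger acts through protein kinase A. The calcitonin receptor-like receptor, from Calcrl, cannot reach the surface as a working receptor without a partner protein: with the product of Ramp1 it binds calcitonin gene-related peptide, and with the products of Ramp2 or Ramp3 it binds adrenomedullin. Stellate cells store vitamin A in the healthy liver, contract around the sinusoid, and lay down collagen after injury.

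Cells were grouped by clustering of all 10X libraries without the 8 genes, and clusters were named from fixed markers. HSC-like cells were drawn from the protocol 2 libraries (6845 uninjured, 7292 at 72 h and 4827 at 6 weeks), and FB-like and VSMC-like cells from protocol 1 (4065 and 1513 uninjured, 2640 and 2784 at 6 weeks). Class and protocol therefore cannot be told apart in the 10X data. The HSC markers Reln and Lrat were at 1406 and 1254 counts per 1000000 counts (CPM) in uninjured HSC-like cells and at 17.5 CPM or less in uninjured FB-like and VSMC-like cells. All 6 HSC markers, which also served to name the clusters, summed to 25353 CPM in uninjured HSC-like cells. They summed to 648 CPM in uninjured FB-like cells, with the highest at 566 CPM, and to 311 CPM in uninjured VSMC-like cells, with the highest at 264 CPM. Libraries held 25962957 to 86661230 unique molecular identifiers (UMIs), with 4299 to 11343.5 per cell at the median. Each pair of libraries shared 33 to 74 cell barcodes, at most 1.31% of the cells. Cells of clusters without a name made up 0.041% to 3.91% of 4 libraries and 11.1% of the 6-week protocol 2 library.

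Promoters are shown for the 4 receptor genes that were lower in HSC-like cells at 72 h. Each window runs from 250 bases before to 50 bases after a RefSeq start site (GRCm38.p6) and is written 5′ to 3′ on the gene's strand. Gcgr lies at chr11:120530477-120530776 (+), the upstream one of 3 Pth1r windows at chr9:110747096-110747395 (-), Vipr1 at chr9:121642466-121642765 (+) and Calcrl at chr2:84425217-84425516 (-). Capitals mark matches, on either strand, to 5 motifs. These were the cAMP response element TGACGTCA, its half-site TGACG (which lies within the longer one), the LIM homeobox motif TAATTA, the GC box GGGCGG, and the classical TATA box motif TATAAA.
Gcgr: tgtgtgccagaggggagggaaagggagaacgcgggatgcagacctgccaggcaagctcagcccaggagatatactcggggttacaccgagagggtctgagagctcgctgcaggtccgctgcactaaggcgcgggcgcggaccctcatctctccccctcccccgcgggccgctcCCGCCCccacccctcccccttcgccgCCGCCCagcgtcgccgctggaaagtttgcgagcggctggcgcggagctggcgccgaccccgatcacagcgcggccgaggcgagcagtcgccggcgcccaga
Pth1r: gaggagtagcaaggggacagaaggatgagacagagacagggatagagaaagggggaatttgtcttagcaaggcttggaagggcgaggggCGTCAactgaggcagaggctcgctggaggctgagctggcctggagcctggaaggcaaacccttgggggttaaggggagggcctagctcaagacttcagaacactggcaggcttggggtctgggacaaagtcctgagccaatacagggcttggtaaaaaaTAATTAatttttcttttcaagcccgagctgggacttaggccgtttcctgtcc
Vipr1: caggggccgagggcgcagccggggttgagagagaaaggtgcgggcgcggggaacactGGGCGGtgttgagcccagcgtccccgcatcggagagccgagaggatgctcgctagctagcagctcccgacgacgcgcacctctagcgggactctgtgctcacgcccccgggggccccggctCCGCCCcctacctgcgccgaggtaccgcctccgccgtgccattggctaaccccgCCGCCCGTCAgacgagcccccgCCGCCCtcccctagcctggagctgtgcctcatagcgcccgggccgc
Calcrl: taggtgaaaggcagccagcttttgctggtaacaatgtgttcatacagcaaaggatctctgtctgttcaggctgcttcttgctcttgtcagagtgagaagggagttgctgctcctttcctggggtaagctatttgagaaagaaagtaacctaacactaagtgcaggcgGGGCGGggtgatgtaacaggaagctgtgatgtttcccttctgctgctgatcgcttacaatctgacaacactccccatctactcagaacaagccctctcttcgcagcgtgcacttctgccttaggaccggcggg
The Gcgr window held 2 matches to GGGCGG, the Vipr1 window 4 and the Calcrl window 1, and this motif was in 35.7% of 32851 promoters of the same length. The printed Pth1r window had no such match. The Pth1r windows not printed, at chr9:110743637-110743936 and chr9:110742561-110742860, held 1 and 4. Of the other members, the Ramp3 window held 3, and those of Ramp1 and Crhr2 had no match. A TGACG match lay 161 bases before the start site of the upstream Pth1r window and 13 bases before that of Vipr1, against 20.8% of all promoters with at least 1 match. The window of Ramp1, a gene not called lower at 72 h, also held a match, 10 bases after its start site. The Pth1r windows not printed had no match to TGACG or TAATTA. Which Pth1r start site the cells used was not tested. TAATTA, held by 5.29% of promoters, was found in the upstream Pth1r window, beginning 2 bases before its start site. TGACGTCA, in 1.79% of promoters, was in none of the 9 windows of the 7 members that had an entry. TATAAA, in 13.6%, was in the Crhr2 window alone of these 9. Ramp2 had no entry.

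Gcgr, Pth1r, Vipr1, Ramp1 and Calcrl each stood at least 2-fold higher in uninjured HSC-like cells than in either other class. That is 5 of the 6 members with 10 CPM or more in uninjured HSC-like cells, where 11.1% of 7891 genes at that level were called. The members were chosen as receptors of stellate cells, with earlier results of these data known. The count is therefore no independent evidence that such receptors are higher in HSC-like cells. Genes entered this count through HSC-like cells alone, so Crhr2, at 14.3 CPM in uninjured VSMC-like cells, was left out of it. Ramp2 and Crhr2 had other patterns, and Ramp3 was close to 0 in all 3 classes. The plot of CPM by class shows the levels of all 8 genes.

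**Figure D1:**
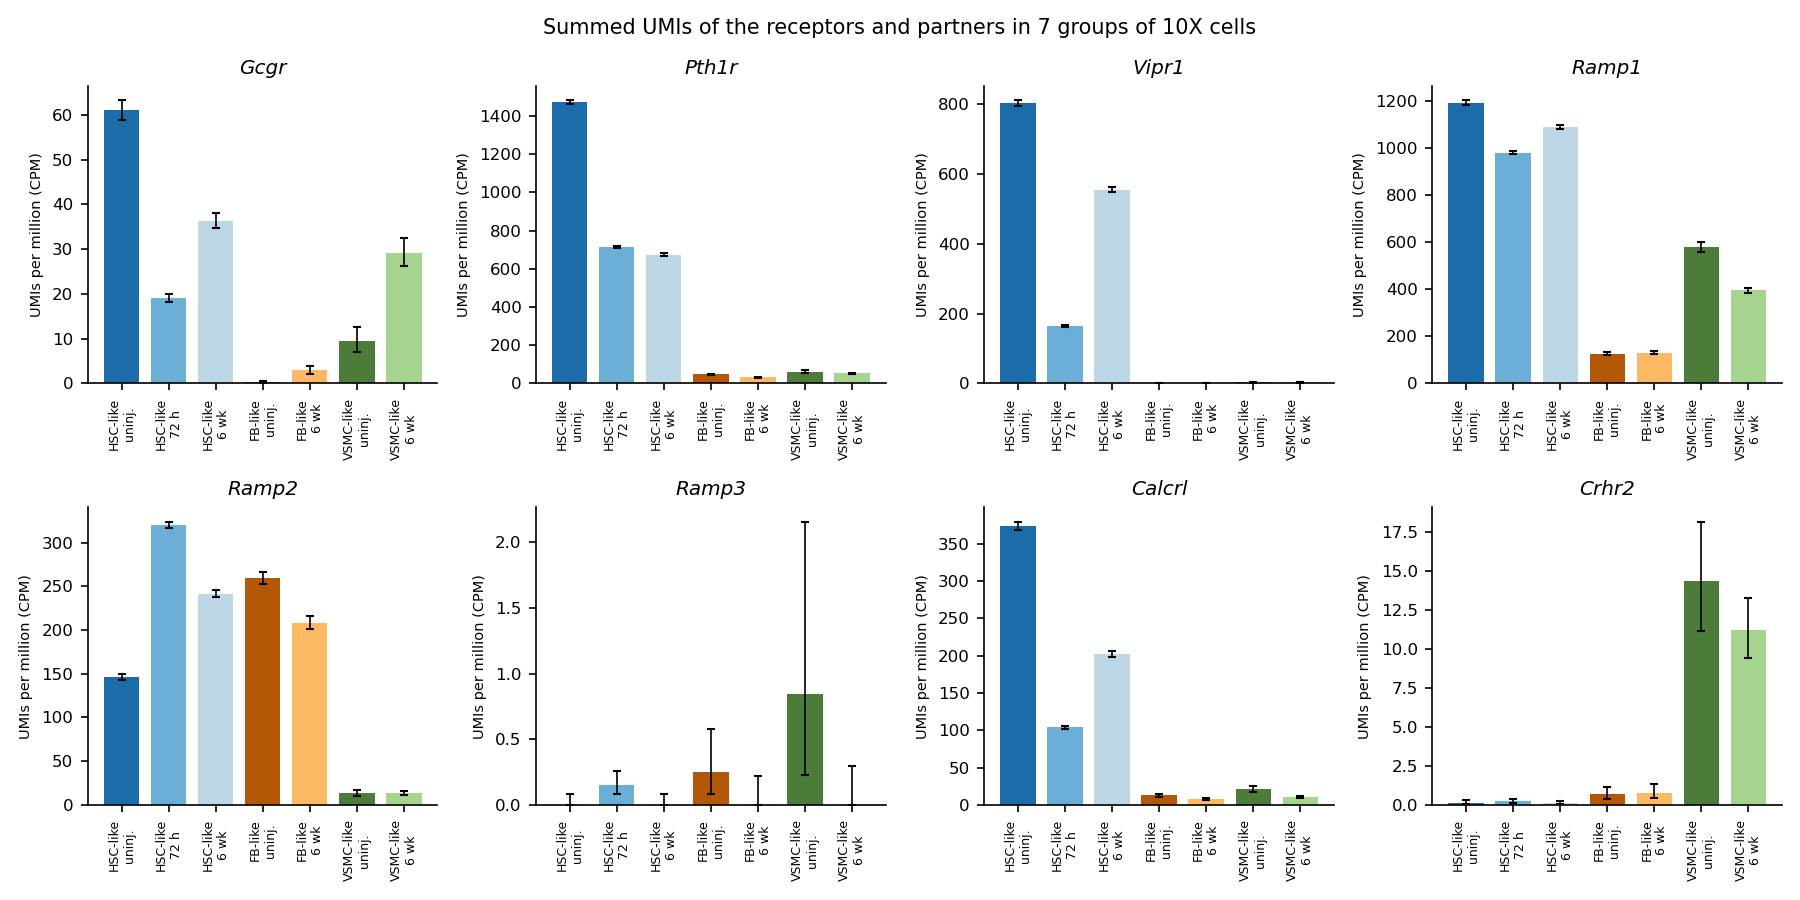
Each panel plots 1 gene, with bars for the CPM of the 7 groups of 10X cells on a linear axis of its own from 0, and error bars for exact 95% Poisson intervals of counting error. Vipr1 stood at 803 CPM in uninjured HSC-like cells and at 2.91 CPM or less in FB-like and VSMC-like cells, while Ramp2 was highest at 320 CPM in HSC-like cells at 72 h.

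Vipr1 encodes a receptor for vasoactive intestinal peptide and for pituitary adenylate cyclase-activating peptide, and lies at chr9:121642716-121672954 on the plus strand (ENSMUSG00000032528; GRCm38, GENCODE vM21). Its level was 803 CPM (795 to 812) in uninjured HSC-like cells, 555 CPM at 6 weeks and 164 CPM at 72 h. In FB-like cells it was 1.19 CPM uninjured and 0.530 CPM at 6 weeks, and in VSMC-like cells 2.32 and 2.91 CPM. The uninjured HSC-like level was 677-fold (455 to 1056) that of FB-like cells and 347-fold (194 to 694) that of VSMC-like cells. When each cell was thinned to 2000 UMIs, 78.8% of uninjured HSC-like cells held a Vipr1 UMI, and 0.335% of uninjured FB-like cells did. Median depths before thinning were 6717 and 4894 UMIs.

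Pth1r encodes the receptor for parathyroid hormone and parathyroid hormone-related protein, and spans chr9:110722085-110747145 on the minus strand (ENSMUSG00000032492). It stood at 1472 CPM (1461 to 1483) in uninjured HSC-like cells, 713 CPM at 72 h and 673 CPM at 6 weeks. FB-like cells had 46.9 CPM uninjured and 31.3 CPM at 6 weeks, and VSMC-like cells 60.9 and 52.3 CPM, so that every HSC-like value lay above every other value. Uninjured HSC-like cells were 31.4-fold (29.4 to 33.5) above FB-like cells and 24.2-fold (21.5 to 27.2) above VSMC-like cells. At 2000 UMIs, 90.7% of uninjured HSC-like cells and 9.36% of uninjured FB-like cells held a Pth1r UMI. Myl3, on the other strand, overlaps Pth1r and was at 4.61 CPM or less in every class.

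Calcrl, at chr2:84330626-84425411 on the minus strand (ENSMUSG00000059588), was at 374 CPM (369 to 380) in uninjured HSC-like cells, 203 CPM at 6 weeks and 104 CPM at 72 h. In FB-like cells the level was 12.6 CPM uninjured and 7.48 CPM at 6 weeks, and in VSMC-like cells 21.3 and 10.4 CPM. HSC-like cells were 29.7-fold (26.2 to 33.7) above FB-like cells and 17.6-fold above VSMC-like cells before injury. Calcrl is best known as an endothelial receptor gene. In HSC-like cells the 6 endothelial markers summed to 3.52 to 6.39 CPM over the 3 libraries, against 104 to 374 CPM of Calcrl, and Cdh5 had no counted UMI in all 3.

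Gcgr, the glucagon receptor gene, spans chr11:120530699-120538986 on the plus strand (ENSMUSG00000025127). Uninjured HSC-like cells had 61.0 CPM (58.8 to 63.3), followed by HSC-like cells at 6 weeks (36.4 CPM), VSMC-like cells at 6 weeks (29.2 CPM) and HSC-like cells at 72 h (19.0 CPM). Uninjured VSMC-like cells had 9.48 CPM (6.92 to 12.7), FB-like cells at 6 weeks 2.95 CPM (50 UMIs) and uninjured FB-like cells 0.198 CPM (4 UMIs). No neighbours in that order had overlapping intervals. At 2000 UMIs, 11.4% of uninjured HSC-like cells, 1.76% of uninjured VSMC-like cells and 0.0774% of uninjured FB-like cells held a UMI, with median depths of 6717, 3151 and 4894 UMIs before thinning. Hepatocytes are the main site of glucagon action, and the 6 hepatocyte markers summed to 62.3 CPM in uninjured HSC-like cells, 15.2 CPM at 72 h and 57.1 CPM at 6 weeks. In uninjured HSC-like cells without an Alb or Apoa1 UMI, Gcgr was at 56.8 CPM. The part of hepatocyte transcripts in the Gcgr level was not tested beyond this.

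Ramp1, the partner that turns the Calcrl product into a receptor for calcitonin gene-related peptide, lies at chr1:91179822-91225196 on the plus strand (ENSMUSG00000034353). Its level in HSC-like cells was 1195 CPM (1185 to 1205) uninjured, 1090 CPM at 6 weeks and 981 CPM at 72 h. VSMC-like cells had 581 CPM (559 to 603) uninjured and 395 CPM at 6 weeks, and FB-like cells 126 and 131 CPM, a fold of 1.04 (0.978 to 1.10). The excess of uninjured HSC-like over VSMC-like cells, 2.06-fold (1.98 to 2.14), lay at the threshold for a call, which it missed with another denominator (UMIs without mitochondrial and ribosomal protein genes and the 50 most abundant genes).

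Ramp2, the partner for adrenomedullin signalling, lies at chr11:101246028-101259546 on the plus strand (ENSMUSG00000001240) and overlaps Vps25 there. HSC-like cells had 146 CPM (143 to 150) uninjured, 242 CPM at 6 weeks and 320 CPM at 72 h. Uninjured FB-like cells had 259 CPM (252 to 266), 1.77-fold the uninjured HSC-like level, and FB-like cells at 6 weeks had 209 CPM. In VSMC-like cells Ramp2 was at 13.1 CPM uninjured and 13.5 CPM at 6 weeks, a fold of 1.03 (0.768 to 1.41). HSC-like and FB-like cells thus carried Ramp2, and VSMC-like cells had 11.2-fold less than uninjured HSC-like cells.

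Ramp3 (chr11:6658521-6677475, plus strand, ENSMUSG00000041046) had no UMI in uninjured HSC-like cells, which allows up to 0.0647 CPM, and none in HSC-like cells at 6 weeks. The library of 72 h held 13 UMIs of it in HSC-like cells (0.150 CPM). Crhr2, which encodes a receptor for corticotropin-releasing hormone and urocortins (chr6:55090049-55133016, minus strand, ENSMUSG00000003476), was found mainly in VSMC-like cells. It was at 14.3 CPM (11.1 to 18.2) there uninjured and 11.2 CPM (9.45 to 13.3) at 6 weeks, and these intervals overlapped. In HSC-like cells it was at 0.220 CPM or less, and in FB-like cells at 0.766 CPM or less.

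Transcripts of 4 receptor genes made up a smaller share of all UMIs of HSC-like cells 72 h after a single dose of CCl4. In CPM, Gcgr, Pth1r, Vipr1 and Calcrl were lower by at least 2-fold, 4 of the 6 members measured at 10 CPM, where 9.56% of 8385 genes were lower by that much. Median depth was 6717 UMIs per cell uninjured, 11346.5 at 72 h and 9860 at 6 weeks. Pth1r had 68214 UMIs in 6845 uninjured cells and 61604 in 7292 cells at 72 h. CPM cannot tell fewer of these transcripts per cell from more of other transcripts. Ramp2 was higher, 1 of 6, where 7.06% of genes were higher. The median of all genes was -0.22 on the log2 scale, so that each log2 fold below can be read against that value.

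Vipr1 was 4.89-fold lower (164 against 803 CPM, log2 -2.29), Calcrl 3.60-fold lower (104 against 374 CPM, log2 -1.85) and Gcgr 3.21-fold lower (19.0 against 61.0 CPM, log2 -1.68). Pth1r was 2.06-fold lower (713 against 1472 CPM, log2 -1.05), close to the threshold, and it missed 2-fold under 5 of the 11 other settings. Ramp1 was 1.22-fold lower, with a log2 value of -0.28 near that of the median gene. Ramp2 was 2.19-fold higher (2.13 to 2.25), from 146 to 320 CPM. Of the Calcrl partners, then, the one for adrenomedullin was higher and the one for calcitonin gene-related peptide near its uninjured level, while Calcrl itself was lower. From these levels, fewer cells with a transcript and less transcript per cell cannot be told apart.

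Shares of cells at 2000 UMIs ran the same way. The share with a Vipr1 UMI was 78.8% uninjured and 29.2% at 72 h, and that with a Calcrl UMI 51.0% and 19.5%. For Pth1r the shares were 90.7% and 66.5%, and for Gcgr 11.4% and 3.83%. Ramp2 UMIs were in 24.7% of uninjured HSC-like cells and in 46.0% at 72 h. Several other measures moved with the 72 h library. The 6 HSC markers summed to 25353 CPM uninjured and 5483 CPM at 72 h, 6 FB markers to 29.9 and 286 CPM, and 5 VSMC markers to 594 and 1994 CPM. The 5 proliferation genes summed to 28.7 and 331 CPM, 9 heat-shock genes to 3624 and 1433 CPM, and 9 immediate-early genes to 12339 and 7213 CPM. Left without the third of cells with the highest stress score, Vipr1 was 4.79-fold, Calcrl 3.60-fold, Gcgr 2.94-fold and Pth1r 1.997-fold lower. Their part in the results was not tested beyond this. Different clusters held most HSC-like cells before injury (clusters 0 and 3) and at 72 h (clusters 2, 9, 11 and 13).

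After 6 weeks of CCl4, only Pth1r of the 6 measured members was lower by 2-fold or more in HSC-like cells, where 1.28% of 8094 genes were, and 0 of 6 were higher, where 2.32% were. Pth1r was 2.19-fold lower (673 against 1472 CPM, log2 -1.13), with 66.1% of cells holding a UMI at 2000 UMIs. It was not called with the other denominator. Calcrl was 1.85-fold lower at 203 CPM, Gcgr 1.68-fold lower at 36.4 CPM and Vipr1 1.45-fold lower at 555 CPM. Ramp1 was 1.10-fold lower, and Ramp2 1.65-fold higher at 242 CPM. The median gene was again at -0.22. The 6 HSC markers summed to 25353 CPM uninjured and 14899 CPM at 6 weeks, the 6 FB markers to 29.9 and 354 CPM, and the 5 VSMC markers to 594 and 1069 CPM. Most HSC-like cells of the 6-week library lay in clusters 5, 10 and 12, and most of the uninjured library in clusters 0 and 3. Their part in the result was not tested. For Pth1r the 2 injured libraries lay near each other, at 713 and 673 CPM, whereas Vipr1 was at 164 CPM at 72 h and 555 CPM at 6 weeks. Both contrasts use the same uninjured library, and dose number as well as time differed between the injured ones.

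**Figure D2:**
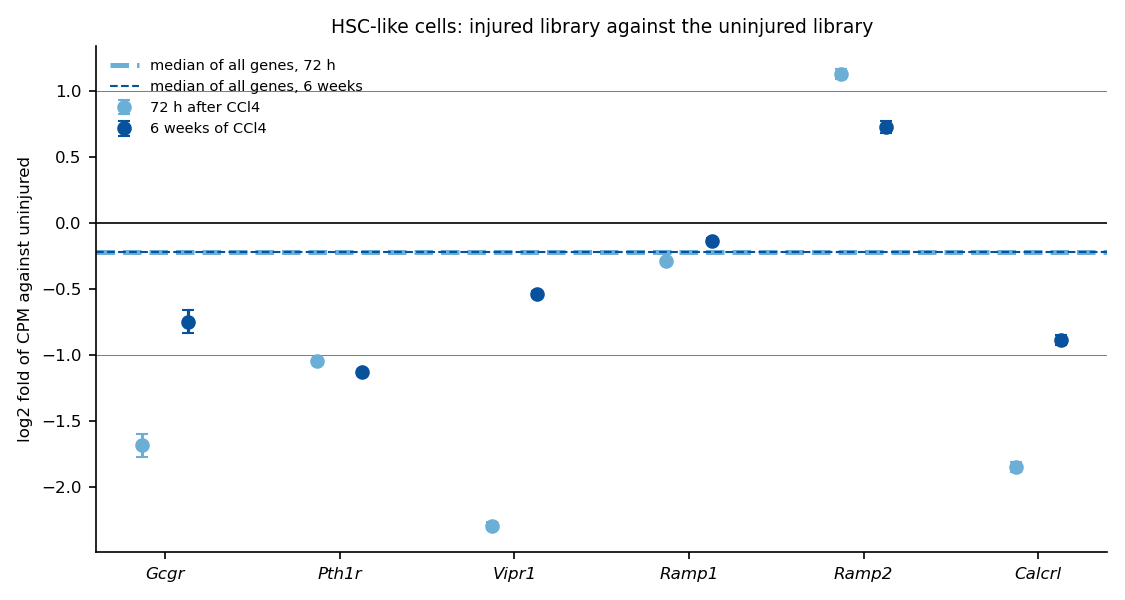
The log2 fold of CPM against uninjured in HSC-like cells is plotted for the 6 measured members at 72 h and after 6 weeks of CCl4, with error bars for exact 95% counting intervals, dashed lines at the median of all genes and thin lines at 2-fold. Vipr1, Calcrl, Gcgr and Pth1r lie below -1 at 72 h, Pth1r alone does at 6 weeks, and Ramp2 lies above 0 in both.

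At equal depth, fewer of these receptor genes were detected in a single cell after injury. At 2000 UMIs, 42.5% of uninjured HSC-like cells held UMIs of 3 or more of the 5 receptor genes, 43.7% of 2, 12.3% of 1, and 1.47% of none. At 72 h the shares were 7.78%, 25.3%, 44.6% and 22.4%, and at 6 weeks 19.4%, 37.6%, 31.3% and 11.6%. Uninjured FB-like and VSMC-like cells had none at that depth in 88.0% and 80.9% of cells. At full depth, Pth1r UMIs alone were in 99.0% of uninjured, 96.8% of 72 h and 93.7% of 6-week HSC-like cells. A cell with none at 2000 UMIs therefore need not lack these transcripts.

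**Figure D3:**
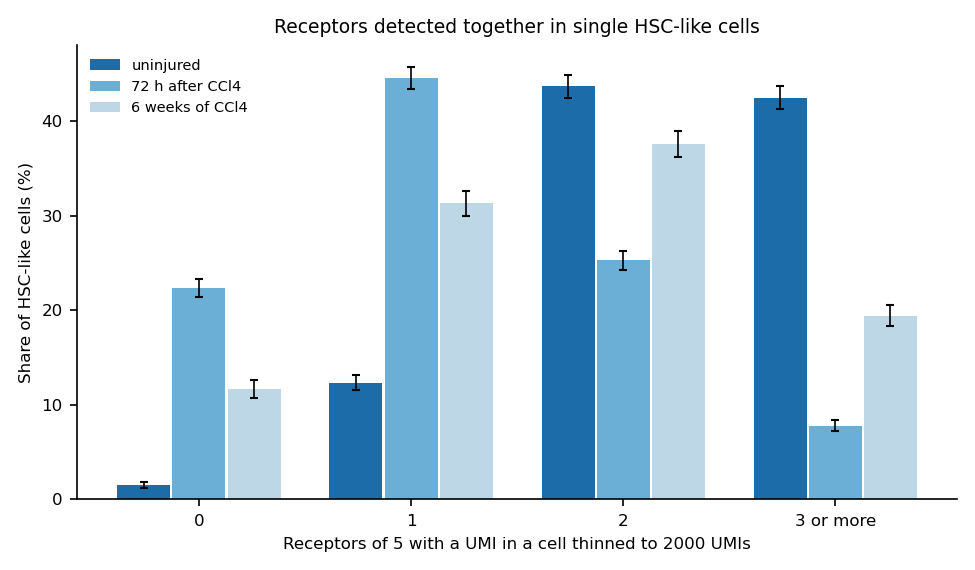
Bars give the percent of HSC-like cells, each thinned to 2000 UMIs, that held UMIs of 0, 1, 2 or at least 3 of the 5 receptor genes (x axis) in the 3 protocol 2 libraries, with exact 95% binomial intervals. Uninjured cells had 42.5% in the top class, against 7.78% at 72 h and 19.4% at 6 weeks.

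Ramp1 UMIs were in most HSC-like cells at the same depth, with or without a Calcrl UMI. Of uninjured HSC-like cells with a Calcrl UMI, 88.5% (87.4 to 89.6) also held a Ramp1 UMI, against 87.6% (86.4 to 88.7) of those without, and these intervals overlapped. The shares were 85.1% and 78.5% at 72 h, and 88.9% and 84.4% at 6 weeks, where the intervals did not overlap. Ramp2 UMIs were in 25.8% of uninjured cells with Calcrl and 23.6% of those without. At 72 h they were in 46.5% and 45.9%. At 6 weeks they were in 33.2% and 36.6%, and the intervals of each of these 3 pairs overlapped.

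Uninjured HSC-like cells were split by a zonation score into portal vein-associated (PaHSC-like, 3054) and central vein-associated (CaHSC-like, 3791) cells. The score used 51 portal and 28 central genes that the study had listed from these same libraries, without Gcgr, which is on that list, and without Adm. Gcgr was at 108 CPM in PaHSC-like and 22.02 CPM in CaHSC-like cells, 4.91-fold (4.48 to 5.40) higher. It was the only one of 6 measured members past 1.5-fold, where 3.6% of 8058 genes were, with genes of the score among those counted. Since the study placed Gcgr on the list from these cells, that difference is no independent evidence of its direction. Pth1r was 1.44-fold higher in PaHSC-like cells (1768 against 1228 CPM), Ramp1 1.35-fold (1391 against 1033 CPM) and Vipr1 1.15-fold (864 against 753 CPM). Calcrl stood at 381 and 369 CPM. Ramp2 ran the other way, at 116 CPM in PaHSC-like and 171 CPM in CaHSC-like cells, and passed 1.5-fold under 3 of the 12 other settings. The groups are ranges of a score, and 17.8% of cells lay within 0.25 SD from the dividing value.

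In 5 equal groups along the score, from the most central to the most portal, Gcgr went from 11.9 to 158 CPM and Pth1r from 953 to 1825 CPM. Ramp1 went from 977 to 1577 CPM, Vipr1 from 698 to 884 CPM and Calcrl from 356 to 379 CPM. Ramp2 went from 180 to 99.7 CPM. The glucagon receptor gene thus had the steepest course of the 6 measured members along this score, and Calcrl the flattest. The score comes from the list on which the study had placed Gcgr from these cells, so the rank of Gcgr is no independent result.

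**Figure D4:**
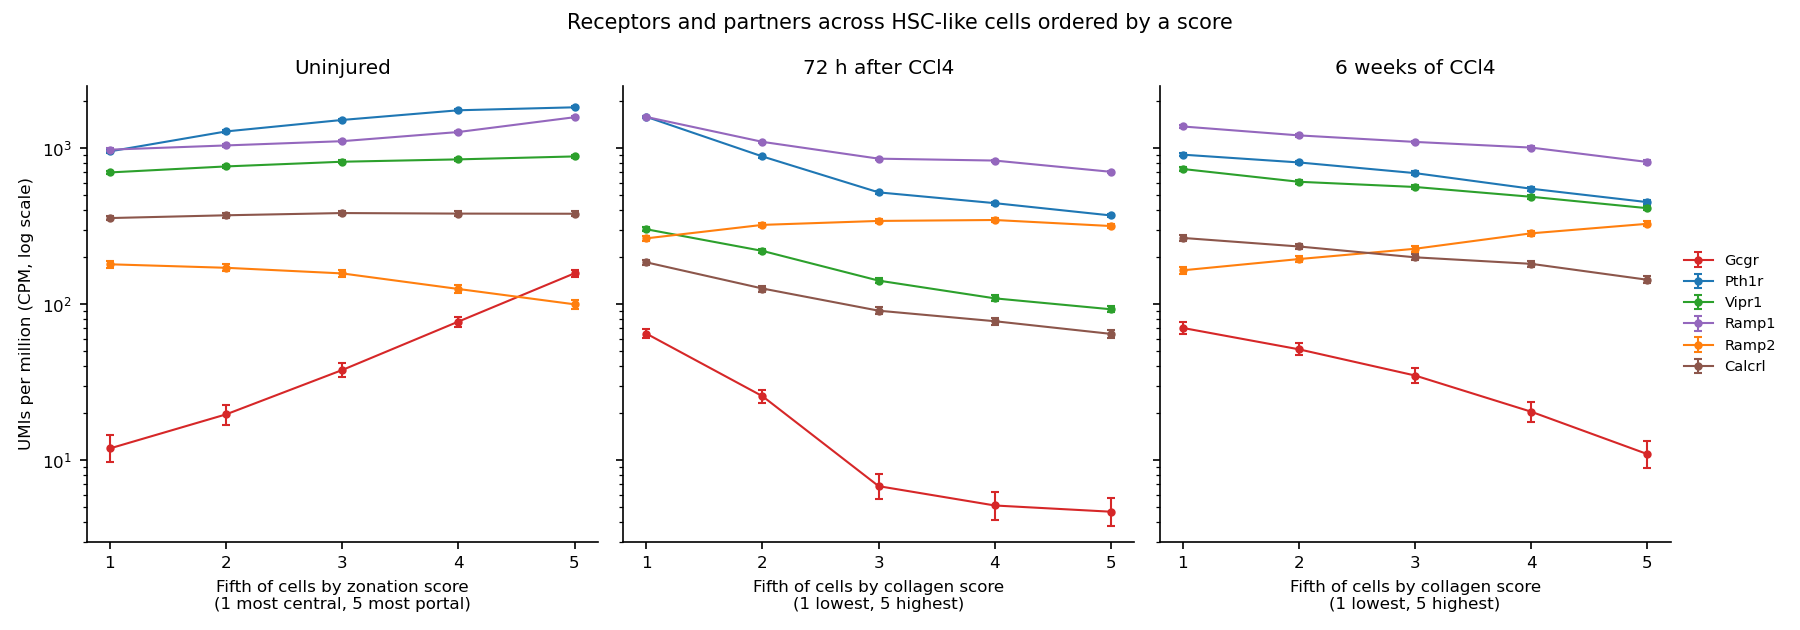
CPM on a log axis is plotted over 5 equal groups of HSC-like cells, from low to high score, for the zonation score before injury and for the collagen score at 72 h and at 6 weeks, with exact 95% counting intervals. Gcgr runs from 11.9 to 158 CPM towards the portal end, and from 64.7 to 4.67 CPM towards the collagen-rich end at 72 h.

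After injury, HSC-like cells were split by their Col1a1, Col1a2 and Col3a1 level, the main fibrillar collagen genes. At 72 h, 4 of the 6 measured members were at least 2-fold lower in the 4546 collagen-high than in the 2746 collagen-low cells, where 1.69% of 7878 genes were. Gcgr was 8.21-fold lower (5.66 against 46.5 CPM), Pth1r 2.79-fold (450 against 1254 CPM), Vipr1 2.28-fold (116 against 264 CPM) and Calcrl 2.01-fold (78.3 against 157 CPM). Calcrl, at the threshold, missed it under 3 of the 12 other settings. Ramp1 was 1.69-fold lower, and Ramp2 1.15-fold higher. In collagen-low cells at 72 h, Pth1r was at 1254 CPM, Gcgr at 46.5 CPM, Vipr1 at 264 CPM and Calcrl at 157 CPM, beside 1472, 61.0, 803 and 374 CPM in uninjured HSC-like cells. The 6 HSC markers summed to 7871 CPM in collagen-low and 4321 CPM in collagen-high cells, and the 6 FB markers to 177 and 339 CPM. Collagen-high cells were deeper, with 12519 against 10151.5 UMIs at the median, and 16.6% of cells lay within 0.25 SD of the dividing value. The study reported raised fibrogenic genes after acute CCl4 only in its central vein-associated cells. Before injury, Gcgr, Pth1r, Vipr1 and Calcrl were 4.91-, 1.44-, 1.15- and 1.03-fold higher in PaHSC-like than in CaHSC-like cells. Cells were not matched by zonation here or at 6 weeks, so collagen level and lobule position cannot be told apart.

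Over 5 equal groups along the collagen score at 72 h, from lowest to highest, Gcgr went from 64.7 to 4.67 CPM, Pth1r from 1586 to 370 CPM, Vipr1 from 302 to 92.7 CPM and Calcrl from 185 to 64.4 CPM. Ramp2 went from 264 to 316 CPM, with a highest value of 346 CPM between. At 6 weeks, Gcgr was the 1 member of 6 that was 2-fold lower in the 3784 collagen-high than in the 1043 collagen-low cells (28.9 against 70.5 CPM, 2.44-fold), where 0.269% of 7814 genes were. Pth1r was 1.45-fold, Vipr1 1.43-fold, Calcrl 1.41-fold and Ramp1 1.33-fold lower there. Ramp2 was 1.54-fold higher (258 against 167 CPM). The dividing score was set within each library, at 2.69 at 72 h and 1.08 at 6 weeks. The 3 collagen genes summed to 11819 CPM in collagen-high and 3000 CPM in collagen-low cells at 72 h. At 6 weeks they summed to 3466 and 1703 CPM, beside 2028 CPM in uninjured HSC-like cells. The folds at 72 h and 6 weeks thus come from unlike contrasts. Median depth at 6 weeks was 10203 UMIs in collagen-high and 7973 in collagen-low cells.

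Clusters showed the same spread in another way. At 72 h, clusters 12 and 13, led by Abhd2 and by Alpl, had Pth1r at 1816 and 1762 CPM, Gcgr at 78.1 and 74.5 CPM and Vipr1 at 495 and 366 CPM. Cluster 2, led by Cthrc1, had 477 CPM of Pth1r, 6.21 CPM of Gcgr and 127 CPM of Vipr1. Cluster 9, led by cell division genes, had 648 CPM of Pth1r and 16.1 CPM of Gcgr. Pth1r and Gcgr were thus at or above their averages over all uninjured HSC-like cells in 2 of the clusters of the injured library. Uninjured PaHSC-like cells had 1768 CPM of Pth1r and 108 CPM of Gcgr, the latter above both clusters. The zonation of these clusters was not tested. In the 6-week library, cluster 14, without a name and led by Alcam, Scube1 and Wt1 among others, had 220 CPM of Pth1r, 3.29 CPM of Gcgr and 455 CPM of Ramp2. With its 605 cells and the other cells of that library counted in, both Pth1r and Calcrl passed 2-fold lower at 6 weeks.

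In FB-like cells after 6 weeks of CCl4, 0 of 4 measured members changed by 2-fold, where 1.93% of 8415 genes did. Pth1r was 1.496-fold lower (31.3 against 46.9 CPM), Calcrl 1.69-fold lower (7.48 against 12.6 CPM) and Ramp2 1.24-fold lower (209 against 259 CPM). Gcgr had 50 UMIs in place of 4, under the minimum of 10 CPM in either library. In VSMC-like cells, 2 of 6 passed 2-fold, where 3.82% of 8039 genes did. Gcgr was 3.08-fold higher (2.25 to 4.30), from 9.48 to 29.2 CPM, and Calcrl 2.04-fold lower, from 21.3 to 10.4 CPM, on 101 and 129 UMIs. The Calcrl call was lost with per-cell means, with thinned cells and without the cells of highest stress score. Ramp1 was 1.47-fold lower.

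The share of VSMC-like cells with a Gcgr UMI at 2000 UMIs was 1.76% uninjured and 5.51% at 6 weeks. The 2 clusters of this class differed: cluster 6, led by Ephx3 and Higd1b among others, had 12.05 CPM of Gcgr uninjured and 39.4 CPM at 6 weeks, and cluster 4, led by Sorbs2 and Tcap, had 8.40 and 16.4 CPM. Cluster 6 made up 483 of the uninjured and 1552 of the 6-week cells, and cluster 4 made up 1030 and 1232. Crhr2 ran the other way, at 17.4 and 20.7 CPM in cluster 4 and 7.09 and 3.64 CPM in cluster 6. Gm11789, on the strand opposite to Gcgr, went with it in VSMC-like cells, from 2.53 to 8.25 CPM. The 6 HSC markers summed to 311 CPM in uninjured VSMC-like cells and 456 CPM at 6 weeks, with Reln at 0 in the latter, and the 6 hepatocyte markers to 9.27 and 15.9 CPM. Their part in the result was not tested.

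Smart-seq2 gave a second measure in uninjured cells, with reads over the whole transcript. HSC-like wells came from 2 portions of plate 6, with 150 and 156 wells, and were set beside 12 portions of FB-like and VSMC-like wells from all plates, in reads per 1000000 reads (RPM). Vipr1 was at 3032 and 3173 RPM in the HSC-like portions, and its range elsewhere was 0 to 68.7 RPM, with a median of 11.7. Pth1r was at 1488 and 1170 RPM, against 0.326 to 65.8 RPM (median 47.3). Calcrl was at 1123 and 890 RPM, against 0.163 to 90.7 RPM (median 13.7). Each of these receptor genes had both HSC-like portions far above all 12 others.

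Ramp1 was at 658 and 573 RPM in the HSC-like portions and at 31.6 to 558 RPM elsewhere, so that the gap was narrow. With it, 4 of 8 members lay above every other portion, where 6.16% of the 11988 genes with at least 10 RPM in a portion did. As in the 10X count, the choice of the members makes this no independent evidence. Ramp3, counted among the 8 members, reached 7.99 RPM at most and was outside that set of genes. Ramp1 left this set when wells were kept by their log10 deviations. Gcgr, at 177 and 86.6 RPM, overlapped the others (0 to 110 RPM, median 2.11), with 1 VSMC-like portion at 110 RPM. Ramp2 was at 93.4 and 88.1 RPM, inside the range of 0.255 to 225 RPM. Crhr2 was at 0 and 0.521 RPM, against a median of 11.5 RPM elsewhere, and Ramp3 at 0 in both. All HSC-like wells were on plate 6, where 13 FB-like and 17 VSMC-like wells of another portion were also kept. On that plate, Vipr1 was at 1.14 RPM in FB-like and 18.1 RPM in VSMC-like wells, Pth1r at 0.326 and 7.75 RPM, Calcrl at 0.163 and 90.7 RPM, and Ramp1 at 44.6 and 408 RPM, each below both HSC-like portions. The HSC-like wells and the others of plate 6 came from different portions, so class cannot be told apart from portion and its digestion protocol. Smart-seq2 libraries do not mark strand, and the table has no row for Gm11789, so its reads cannot be told apart from those of Gcgr where the genes overlap.

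BDL and 6 weeks of CCl4 were compared with uninjured wells in FB-like and VSMC-like cells, over the portions of plates 1 to 5 (5 uninjured, 5 BDL and 4 CCl4 portions per class) with plate in the model. A portion is the wells of 1 mouse label on 1 plate. The layouts do not say whether mice recur between plates, so p-values measure the spread between portions. In edgeR's quasi-likelihood test with Benjamini-Hochberg adjustment, 0 of 6 tested members in FB-like and 0 of 7 in VSMC-like wells passed an adjusted p of 0.05 in any comparison. For FB-like wells the share of all 13745 genes called was 0.0146% higher and 0.0146% lower in BDL, and 0.0364% higher and 0% lower in CCl4. For VSMC-like wells, of 13063 genes, it was 0.00766% higher and 0% lower in BDL, and 0% in CCl4. The test of the difference between the 2 injuries called 0% of genes in both classes. At an unadjusted p under 0.05, edgeR gave 1 member in each FB-like comparison (Ramp2, Ramp1 and Ramp2) and 0 in VSMC-like wells. DESeq2 gave 0 adjusted calls in all 6, and 1, 3 and 1 unadjusted in FB-like wells. In simulated data, the test found 19 of 100 genes changed 4-fold and 43 of 100 changed 8-fold in FB-like wells for BDL against uninjured.

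Ramp1 in FB-like wells was at 109, 31.6, 144, 109 and 177 RPM in the uninjured portions of plates 1 to 5. The CCl4 portions had 18.9 and 6.69 RPM on plate 3, and 9.06 and 61.7 RPM on plate 5. Within each of these plates both CCl4 portions lay below the uninjured one, but over all plates the groups overlapped. The log2 fold was -2.90 (SE 1.01, edgeR adjusted p = 0.705). Of 138 wells in an FB-like cluster led by Saa3, 44 were on plate 3 and 89 on plate 5. The part of that cluster in the fold was not tested. BDL portions had 144, 18.2, 20.9, 0.917 and 44.5 RPM, and a log2 fold of -1.03 (SE 0.88, edgeR adjusted p = 0.780). In the 10X libraries, FB-like Ramp1 was at 126 CPM uninjured and 131 CPM after 6 weeks of CCl4.

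Ramp2 in FB-like wells was at 146, 147, 92.5, 225 and 108 RPM uninjured and at 86.8, 154, 88.8, 94.1 and 104 RPM in BDL. CCl4 portions had 147, 134, 124 and 180 RPM. The values of the 3 conditions overlapped. The log2 fold was -0.63 (SE 0.27, edgeR adjusted p = 0.543) for BDL and 0.58 (SE 0.32, adjusted p = 1) for CCl4. The difference between these effects was -1.21 (SE 0.42, edgeR adjusted p = 1), so that it failed the correction over all genes.

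**Figure D5:**
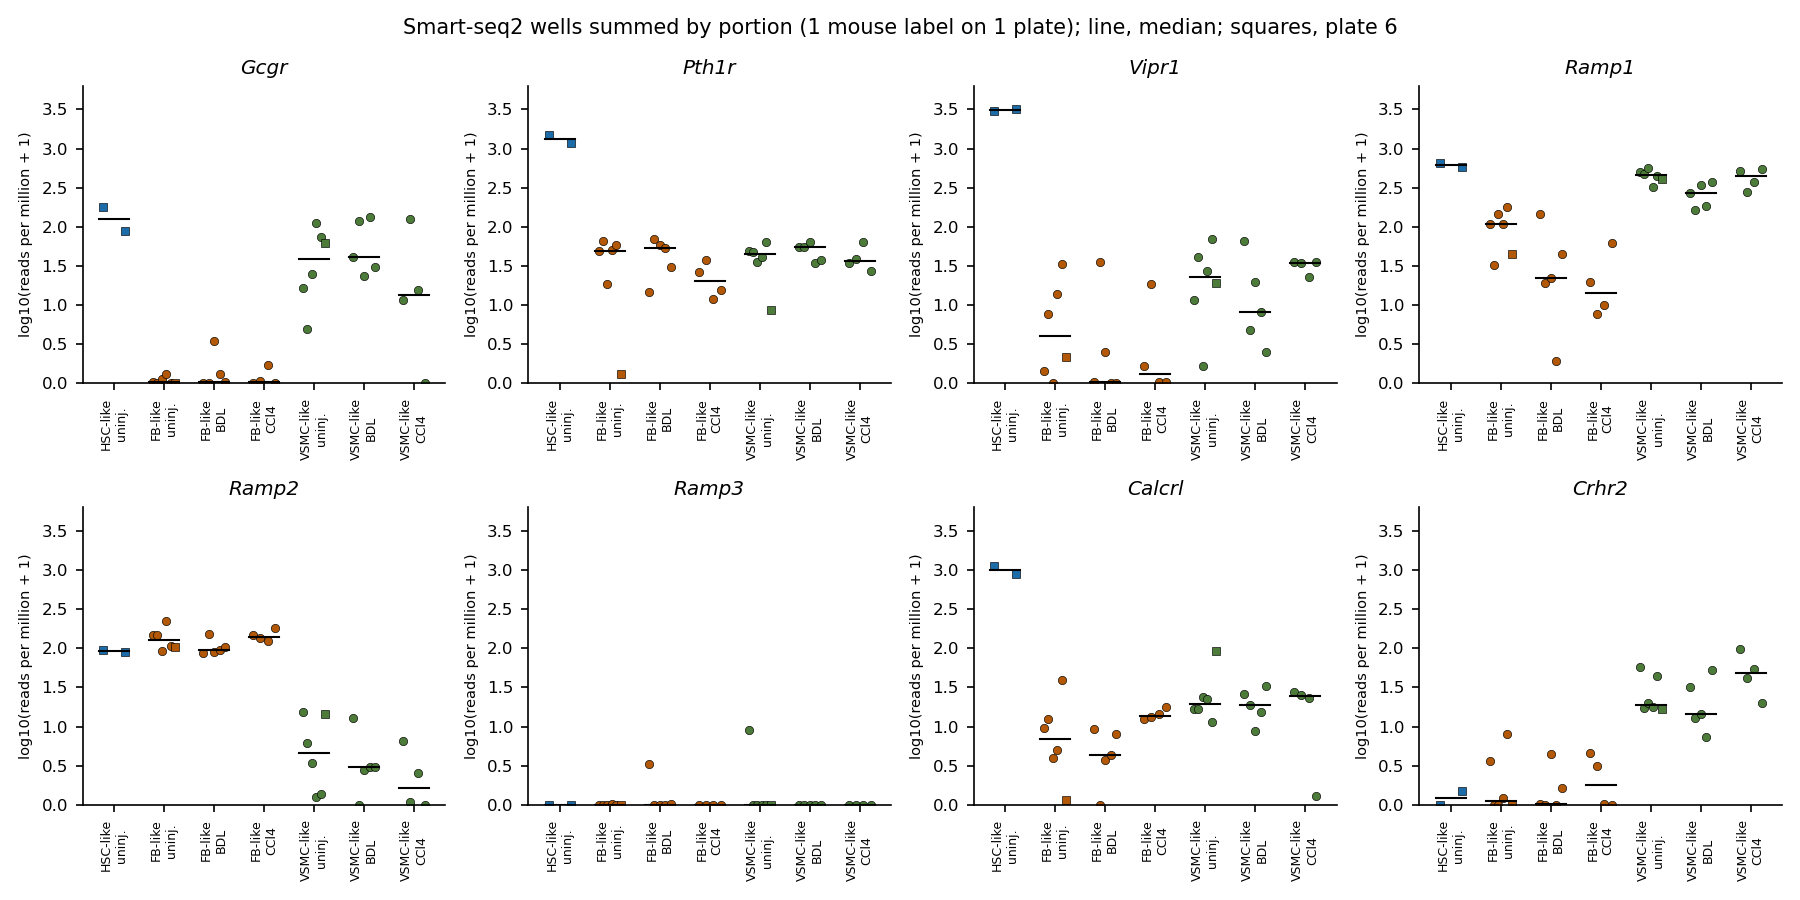
Each panel plots log10(RPM + 1) of 1 gene by class and condition, 1 point per portion (circles for plates 1 to 5, squares for plate 6), with lines at the medians. Values of each injury overlap the uninjured ones within FB-like and within VSMC-like wells, for example Gcgr in VSMC-like wells from 3.92 to 110 RPM uninjured and from 0 to 125 RPM in CCl4. The 2 injuries overlap as well, except for Calcrl in FB-like wells. It ran from 0 to 8.35 RPM in BDL and from 11.6 to 17.0 RPM in CCl4.

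Gcgr in VSMC-like wells was at 15.5, 3.92, 23.9, 110 and 72.9 RPM uninjured, 40.6, 117, 22.7, 131 and 29.5 RPM in BDL, and 10.8, 125, 14.5 and 0 RPM in CCl4. The 3 conditions overlapped. The log2 folds were 2.04 (SE 1.94, edgeR adjusted p = 0.897) for BDL and -1.59 (SE 1.93, adjusted p = 1) for CCl4. The higher Gcgr level of the 10X VSMC-like cells at 6 weeks was thus not detectable between these portions, with an approximate 95% interval of -5.38 to 2.19 on the log2 scale. The interval uses the SE and a normal distribution, and can be narrower than limits from the test itself.

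Crhr2 in VSMC-like wells had 56.9, 16.5, 18.8, 17.0 and 42.8 RPM uninjured, 31.4, 12.01, 13.5, 6.28 and 51.8 RPM in BDL, and 98.4, 41.2, 53.9 and 19.0 RPM in CCl4. The groups overlapped, with log2 folds of -0.37 (SE 0.66, edgeR adjusted p = 0.962) and 0.72 (SE 0.83, adjusted p = 1). Ramp1 in the same wells was at 323 to 558 RPM uninjured, 161 to 375 RPM in BDL and 275 to 545 RPM in CCl4. Its BDL log2 fold was -0.64 (SE 0.33, edgeR adjusted p = 0.715). Crhr2 and Gcgr reads were again a feature of VSMC-like more than of FB-like wells, where no uninjured portion passed 7.02 RPM of Crhr2 or 0.309 RPM of Gcgr.

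The rest of the pathway was described from lists of 15 G protein and cyclase genes, 14 effectors, 10 phosphodiesterases and 8 partners. In HSC-like cells at 72 h, where 9.56% of all genes were 2-fold lower, 2 of 8 measured genes of the G protein and adenylyl cyclase list were 2-fold lower, Gnai1 (10.9 against 27.3 CPM), for an inhibitory G protein subunit, and Adcy5 (14.6 against 42.9 CPM), for an adenylyl cyclase. Of 10 measured genes for protein kinase A and cAMP effectors, Crtc2, a coactivator, was lower (5.78 against 17.6 CPM). Of 6 phosphodiesterases, Pde8b, which breaks down cAMP, was lower (15.7 against 44.4 CPM). None of 6 receptor partners and desensitising genes passed, and none of these lists had a gene 2-fold higher. The largest rises in them were of Gnas, for the stimulatory G protein, at 1.73-fold (2300 against 1328 CPM), and of Gnai2 at 1.36-fold (1171 against 858 CPM). The lists' median log2 folds were -0.22, -0.66, -0.43 and -0.15, against -1.36 for the 6 measured members and -0.22 for all genes. At 6 weeks, Prkar2a, a regulatory subunit of protein kinase A, was the 1 gene past 2-fold among them (7.21 against 14.5 CPM), where 1.28% of all genes were lower.

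Of 14 peptide ligand genes, Adm alone reached 10 CPM in HSC-like cells. It encodes adrenomedullin, a ligand of the Calcrl and Ramp2 pair, and was at 235 CPM uninjured, 154 CPM at 72 h and 211 CPM at 6 weeks. Its level in FB-like cells was 216 CPM uninjured. In PaHSC-like and CaHSC-like cells it was 172 and 287 CPM, the same direction as Ramp2, and the study had also listed Adm as zonated. Gcg and Vip, which encode glucagon and vasoactive intestinal peptide, had no counted UMI in HSC-like cells. Pthlh, for parathyroid hormone-related protein, was at 84.4 CPM in uninjured FB-like cells and 24.2 CPM in FB-like cells at 6 weeks. It had no counted UMI in uninjured HSC-like cells. Of 10 other class B receptor genes, Adcyap1r1 was the 1 measured in HSC-like cells, at 18.9 CPM uninjured, 16.2 CPM at 72 h and 26.7 CPM at 6 weeks. In Smart-seq2 wells, no gene of these lists passed the adjusted threshold in edgeR's test.

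The genes closest in pattern to each member over the 7 groups of 10X cells were ranked by the root mean square of centred log2(CPM + 1) differences among 7564 genes. Calcrl and Pth1r were close to each other (0.38), after Neurl3 for Pth1r (also 0.38). Epas1, a hypoxia-inducible factor gene, was closest to Gcgr (0.54), Angptl6 to Vipr1 (0.48), Hand2, a transcription factor gene, to Ramp1 (0.22) and Olfml3 to Ramp2 (0.23). Ramp3 and Crhr2 stayed under the 20 CPM needed. The 7 groups come from 5 libraries, so their values share depth and protocol.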

How the data were processed

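Green cells sorted from mouse liver were measured in 5 10X libraries and on 6 Smart-seq2 plates. The 10X files hold the UMI counts that the authors made with Cell Ranger 2.1.0 on mm10, for the 5454 to 7311 barcodes per library called as cells. The Smart-seq2 file holds read counts per gene and well, deposited without normalization after STAR and rpkmforgenes on mm10 with eGFP and spike-in sequences, which were kept out of the totals. These reads carry no molecular identifiers, and genes of near-identical sequence or on overlapping strands may share them.

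The 8 members, the gene lists and the tests were chosen with earlier results of these data known. All 8 members were described, with counts for each pathway list. Ligand and class B receptor genes at 10 CPM or more were named. Of the other lists, genes past 2-fold in HSC-like cells and the largest rises at 72 h were named. The genes most like a member needed 20 CPM.

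Cells with at least 300 genes and at most 30% mitochondrial UMIs were kept, and wells within 3 median absolute deviations of their plate (337 to 364 of 382 wells per plate, with 392996 to 462650 reads per well at the median). Cells of all libraries were clustered together (2000 variable genes without the members, 10 components, 30 neighbours, Leiden resolution 0.8), and wells in the same way. A cluster took a name from at least 3 markers of a type at 20 CPM (20 RPM for wells), by a scoring set after clusters had been looked at, and the names may differ from the authors'. Wells with at least 3 markers of another cell type at 10 RPM were left out in an alternative. Cells were scored against simulated doublets, and the highest-scoring 4.36% to 5.84% per library were called doublets. That share was set in advance from the cell number, at 0.8% per 1000 cells, and is not a measured rate. The called doublets were kept, and left out in an alternative.

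UMIs were summed per library and class and divided by all UMIs of that class (CPM). Poisson limits (exact) stand beside CPM and Clopper-Pearson limits beside shares, both for counting error only. A fold was called at 2-fold (1.5-fold for zonation) with 10 CPM or more in the higher group, and a count of 0 was set to 3. For the comparison of classes, the 10 CPM had to be reached in uninjured HSC-like cells. Smart-seq2 portions of at least 5 wells were summed and fitted with edgeR's quasi-likelihood test with plate and condition as terms, after a filter on low counts and TMM scaling. In simulated data, the test for BDL against uninjured found 19 of 100 genes changed 4-fold and 43 of 100 changed 8-fold in FB-like wells (2 false calls of 13745 genes), and 35 and 53 of 100 in VSMC-like wells (4 of 13063). Alternatives changed the denominator, depth, filters, clustering, doublets, scores, scaling, plate term and tool, and left out each portion and plate. The count tests came from edgeR 4.0.16, and DESeq2 1.42.0 for the alternative, under R 4.3.3. Clustering used leidenalg 0.10.2 with igraph 0.11.9 in Python 3.11.15, and components came from scikit-learn 1.9.0. Tables and intervals used pandas 2.3.3, NumPy 2.4.6 and SciPy 1.17.1.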

Additional observations from a re-analysis of the deposited data

Results flagged for a closer look

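In the Smart-seq2 portions of plates 1 to 5, 15 of the 45 groups of 4 or 5 portions (1 group for a member, class and condition) held 1 portion apart from the others by Dixon's criterion. It flags about 5% of groups where values are normally distributed. Here it was used on RPM without logs, with many values at or near 0, so 5% is not the rate to compare with. Where all portions but 1 were at 0, as for Ramp3 in both uninjured groups, a flag was certain. The 45 groups share portions and are not independent, and no explanation was tested.

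In FB-like wells, Calcrl stood at 38.7 RPM in the uninjured portion of plate 5, with reads in 15 of 58 wells, and the next uninjured portion had 11.6 RPM. Ramp2 was at 154 RPM in a BDL portion of plate 1 with only 14 wells, and the next had 104 RPM. In that same portion Vipr1 was at 34.3 RPM, from 2 of 14 wells. Vipr1 was at 17.7 RPM in a CCl4 portion of plate 3, from 5 of 33 wells. Among BDL portions, 1 of plate 2 held the highest Crhr2 (3.51 RPM) and the highest Gcgr (2.50 RPM), each from 2 of 83 wells. Gcgr was at 0.736 RPM in a CCl4 portion of plate 5, from 1 of 97 wells. Ramp3 was at 2.35 RPM in a BDL portion of plate 1, from 2 of 93 wells, and at 0.0386 RPM in the uninjured portion of plate 4, from 1 of 52 wells.

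In VSMC-like wells, Gcgr was at 125 RPM in a CCl4 portion of plate 3, with reads in 40 of 90 wells, while the next CCl4 portion had 14.5 RPM. Calcrl was lowest, at 0.301 RPM, in a CCl4 portion of plate 5, and the next lowest had 22.3 RPM. Vipr1 was at 64.1 RPM in a BDL portion of plate 1, with reads in 12 of 58 wells, against 18.7 RPM in the next. The same portion had 11.9 RPM of Ramp2, from 2 of 58 wells. Among CCl4 portions Vipr1 was lowest at 21.6 RPM on plate 5, with reads in 5 of 50 wells, and the next lowest had 33.4 RPM. Ramp3 was at 7.99 RPM in the uninjured portion of plate 1, from 1 of 57 wells.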

How the results depend on the processing

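Of 267 values under other settings, 254 counts of members stayed within 1.5 times the reported one and 13 did not. The 267 include 26 other settings for each Smart-seq2 comparison of injuries, where a count that stayed at 0 was scored as unchanged. That test missed most genes changed 4-fold in simulated data, so these values say little about stability. Within the range of 1.5 times, Pth1r left the members lower at 72 h under 5 settings, with folds of 1.96 to 2.07 over the choices of cells. With UMIs counted without mitochondrial and ribosomal protein genes and the 50 most abundant genes, 0 members were lower at 6 weeks in HSC-like cells, and 2 (Gcgr and Ramp2) differed by zonation. Thinning to 2000 UMIs gave the same 2 by zonation and 1 (Gcgr) in VSMC-like cells, and mean per-cell CPM also gave 1 there (Gcgr). With no minimum other than 3 counts, 2 members were higher at 72 h (Ramp2 and Ramp3), 2 changed in FB-like cells (Gcgr and Vipr1) and 2 differed by zonation (Gcgr and Crhr2). The highest- and lowest-scoring cells by zonation, with the middle left out, gave 3 (Gcgr, Pth1r and Ramp2). Chosen after seeing the data, all cells of the protocol 2 libraries gave 2 members lower at 6 weeks (Pth1r and Calcrl), leaving out the third of cells with the highest stress score gave 1 in VSMC-like cells (Gcgr), and log10 deviations of wells gave 3 members above every other portion (Pth1r, Vipr1 and Calcrl).

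In Smart-seq2, 0 members passed under each other setting, among them every portion and every plate left out, except that Ramp1 passed in FB-like wells for CCl4 with no filter on low counts (1 member). Over these settings its log2 fold ran from -3.83 to -2.19 and its adjusted p from 0.00155 to 1. Counts of all genes called moved more. FB-like wells gave 4 genes for BDL and 5 for CCl4 with edgeR, 60 and 84 without the plate term, 615 and 374 with DESeq2, 311 and 159 with no filter, 8 and 10 with portions of at least 10 wells, 0 and 2 with log10 deviations, 0 and 3 without wells holding markers of other types, 0 to 8 and 0 to 10 with 1 portion left out, and 0 to 3 and 0 to 17 with 1 plate left out. VSMC-like wells gave 1 gene for BDL and 0 for CCl4 with edgeR, 43 and 0 without the plate term, 341 and 192 with DESeq2, and 161 and 25 with no filter. The difference of the 2 injuries gave 0 genes in both classes, 223 and 141 with DESeq2, 55 and 19 with no filter, and 7 and 1 without the plate term. The cause of these shifts was not tested. No paired analysis was possible because the 10X comparisons have 1 library per condition and the numbers of Smart-seq2 mouse labels are not stated to pair mice between conditions; plate was already a term.

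The 10X contrasts rest on 1 library per condition and have no replicate check. At 2000 UMIs a gene near 1 CPM is seen in few cells, so that Ramp3 and the low FB-like levels of Gcgr and Vipr1 rest on few UMIs.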

Other observations

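Calca, the gene for calcitonin gene-related peptide and calcitonin, was seen in FB-like wells of injured liver. It was picked out after its values had been seen. Calca was among the 10 genes that led 1 FB-like cluster of wells, together with Saa3, Hp and Lcn2. Of the 138 wells of that cluster, 44 were on plate 3 and 89 on plate 5, the plates with CCl4 portions. The 10 leading genes are those of highest fold in the cluster against all other wells. Calca was not otherwise compared between clusters. The uninjured portions of plates 1 to 5 had 0.338, 0, 0, 0 and 0.468 RPM. The CCl4 portions had 23.7 and 13.2 RPM on plate 3 and 166 and 177 RPM on plate 5, all above the uninjured ones, with reads in 26.8% and 24% of wells of the plate 5 portions. BDL portions had 146, 0, 0, 0 and 0.673 RPM, where the highest came from 5 of 93 wells. The log2 fold for CCl4 was 8.93 (SE 2.33, edgeR adjusted p = 0.418) and failed the correction. In the 10X libraries, Calca had no counted UMI in uninjured FB-like cells and 33 UMIs (1.94 CPM) at 6 weeks, and it had none counted in HSC-like cells of any library.

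Receptor genes of the vasoactive intestinal peptide family differed between classes. Vipr2, for the sister receptor of the Vipr1 product, was at 11.9 CPM in uninjured FB-like cells and 10.4 CPM at 6 weeks, and had no counted UMI in uninjured HSC-like cells. Adcyap1r1, for a receptor of pituitary adenylate cyclase-activating peptide, was at 28.4 CPM in FB-like cells uninjured and 48.7 CPM at 6 weeks. In VSMC-like cells it was at 1.90 CPM (9 UMIs) and 11.8 CPM (146 UMIs). In PaHSC-like and CaHSC-like cells it was at 28.5 and 11.0 CPM. Each of these 10X values comes from 1 library.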
